A study of Mus musculus with 6 samples.

Results

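The miR-191 and miR-425 cluster comprises 2 miRNA hairpins of mouse chromosome 9, and its 4 members are the mature arms mmu-miR-191-5p, mmu-miR-191-3p, mmu-miR-425-5p and mmu-miR-425-3p, written below without the species prefix. They were chosen by name from the deposited table of known miRNAs, 4 of 1978 rows, and all 4 passed the filter on low counts that left 619 miRNAs for testing. The hypoxia group was c-kit+ cardiac progenitor cells cultured for 12 hours under hypoxia, and the control group was cells of the same kind labelled with 0 hours. The RNA came from cells by the design text but from exosomes by the labels' protocol. All levels and ratios below may therefore be those of cells or of exosomes. Both groups were wild type (WT), from hearts of male C57BL/6 mice aged 4 to 6 weeks, isolated with magnetic beads against c-kit, a receptor tyrosine kinase at the cell surface, with 3 libraries per group. The labels do not say how long control cells were kept in culture, so culture time and hypoxia cannot be told apart, and their treatment field reads hypoxia for both groups, which were therefore formed from titles and times. The sources used here give neither the oxygen level nor the origin of the replicates (separate animals or cultures), so p-values reflect library-to-library spread, which may be technical.

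A miRNA gene is transcribed into a primary transcript, from which Drosha cuts a hairpin and Dicer a duplex of a 5p and a 3p arm. One arm is usually kept in an Argonaute protein, where bases 2 to 8, the seed, pair with target mRNAs, and the other is mostly degraded. In human, miR-191 and miR-425 are processed from a shared transcript of the DALRD3 locus. Both are broadly expressed. miR-191-5p is used as a normalizer in PCR assays, and in human tumour cells it has been described as raised by hypoxia. Human miR-425-5p is known to act on the mRNA of NPPA, the precursor of the heart hormone atrial natriuretic peptide.

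The 4 mature sequences from RefSeq (GRCm38.p6), all of which matched by name, are shown because the seed sets which mRNAs each arm can address. Capitals mark the seed.
miR-191-5p: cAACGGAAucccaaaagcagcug
miR-191-3p: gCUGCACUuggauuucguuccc
miR-425-5p: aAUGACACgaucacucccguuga
miR-425-3p: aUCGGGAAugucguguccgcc
The seeds of the 4 arms differ from one another, so the cluster, defined by position, is not a seed family. In the RefSeq table the seeds of miR-191-5p, miR-191-3p and miR-425-3p occurred in 0 other mature mouse miRNAs. That table lists only 1 arm of some hairpins, so unlisted arms were not searched. The miR-425-5p seed occurred in 1 other, miR-489-3p of chromosome 6, shown for the 8 bases from its 5′ end that it shares with miR-425-5p.
miR-489-3p: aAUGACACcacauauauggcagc
miR-489-3p had 0 counts in each of the 6 libraries, which allows a level of up to 0.177 to 0.244 CPM (counts scaled to a common library size), depending on the library. Among the listed arms, the AUGACAC seed was therefore measured through miR-425-5p. The longest run of bases that any member shared with another mature miRNA of the table was 8.

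The hairpins are shown with their mature arms in capitals, because the arms of one hairpin are compared further on.
Mir191: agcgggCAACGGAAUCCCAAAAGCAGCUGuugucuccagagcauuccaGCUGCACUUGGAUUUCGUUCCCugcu
Mir425: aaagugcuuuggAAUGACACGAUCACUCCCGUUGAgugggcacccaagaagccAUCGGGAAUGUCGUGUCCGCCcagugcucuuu
Mir191 lies at chr9:108568319-108568392 and Mir425 at chr9:108568777-108568861, both on the plus strand of GRCm38, with 384 bases between them. RNAfold gave both hairpins 28 base pairs, with a minimum free energy of -35.0 kcal/mol for Mir191 and -31.7 kcal/mol for Mir425. Of the first 4 bases of the Mir191 arms, 3 were paired in the 5p arm, 1 of them in a G-C pair, and 4 in the 3p arm, 3 of them in G-C pairs. In Mir425, 1 of the first 4 bases of the 5p arm was paired, against 4 of the 3p arm. The less firmly paired 5′ end thus belonged to the 5p arm in both predicted folds. As background, the strand with the less stable 5′ end is the one usually loaded into Argonaute.

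The annotations differ on the host gene. The RefSeq span of Dalrd3, a protein-coding gene, runs from 108567484 to 108572773 and holds both hairpins. In GENCODE M21, Dalrd3 starts at 108569886, 1024 bases past the end of Mir425, and both hairpins lie within the lincRNA gene 4833445I07Rik (108567533 to 108569174, plus strand). They are exonic in its 1-exon transcript, whereas in the 2-exon transcript Mir191 is intronic and Mir425 starts 3 bases past the transcript's end. A predicted miRNA gene, Gm24083 (108568295 to 108568414), lies over Mir191 on the minus strand. The sources used here do not say whether the counting used strand. Neither host transcript was measured in these small RNA libraries.

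**Figure D1:**
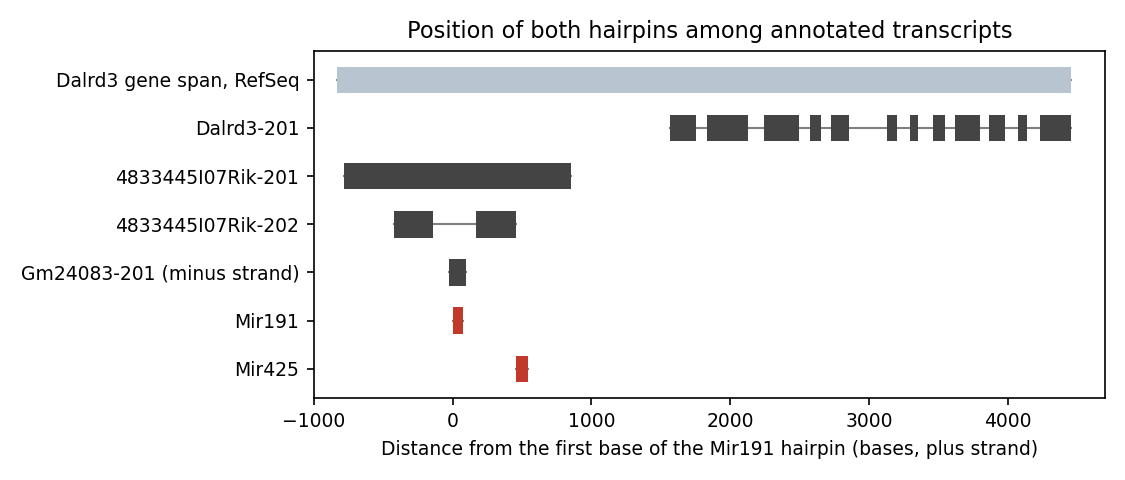
Both hairpins (red) and the annotated transcripts around them, with distance in bases from the first base of Mir191 on the x axis; black boxes are GENCODE M21 exons, thin lines are introns and the pale bar is the RefSeq gene span of Dalrd3. The hairpins, 384 bases apart, lie inside the RefSeq span but upstream of the first exon of the GENCODE transcript of Dalrd3.

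The libraries held 12285970 to 16975987 counts of known miRNAs. Columns of the deposited table carry a digit and a letter. Columns with the prefix 0 were taken as control (0 hours) and those with the prefix 1 as hypoxia, and all directions depend on this assignment. The letters A, B and C, which match no replicate number of the sample titles, name the libraries here, and deviations from the group means went together in same-lettered libraries. Of markers for other cell types, endothelial arms (miR-126a-3p and miR-126a-5p, 2 of 2 tested) summed to 200661 to 238098 CPM in hypoxia and 227198 to 249640 CPM in control. Averaged over the 6 libraries, miR-126a-3p alone held 22.1% of known miRNA counts, and only miR-21a-5p, at 29.4%, held more. Fibroblast and smooth muscle markers (5 of 5 tested) summed to 26572 to 50347 CPM in hypoxia and 26072 to 57420 CPM in control. Blood cell markers (5 of 7 tested) summed to 41.8 to 56.7 CPM in hypoxia and 48.6 to 54.3 CPM in control, and cardiomyocyte markers (3 of 5 tested) to 102 to 172 CPM in hypoxia and 76.1 to 170 CPM in control. The log2 fold change, hypoxia over control, was below 0 for 0 of 3 tested cardiomyocyte markers, whose median was 0.52. Below 0 were 1 of 2 endothelial, 2 of 5 fibroblast and smooth muscle and 2 of 5 blood cell markers. Of all tested miRNAs, 302 of 619 (48.8%) lay below 0. The markers below the filter were miR-208a-3p, miR-208b-3p, miR-144-3p and miR-223-3p, with 28, 6, 6 and 49 counts over all 6 libraries. The cell-surface marker c-kit is an mRNA and protein and was not measured. The part of cell composition in the results below was not tested, and fewer cells of a type and less RNA per cell cannot be told apart in such samples.

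At an adjusted p of 0.05 the edgeR test called 0 of the 4 arms between hypoxia and control, with or without the letter as a block. Without the block it called 0 of 619 miRNAs, so an uncalled arm is not thereby shown to be equal in both groups. The 4 levels lay in the same order in every library. By mean level over the 6 libraries, miR-191-5p ranked 51 of the 619 tested miRNAs and miR-425-5p ranked 123. Their partner strands were much scarcer, at rank 304 for miR-425-3p and 386 for miR-191-3p. Levels are counts per mature miRNA in CPM with TMM scaling (a trimmed mean of ratios that sets libraries to a common size). They were not scaled by length, the 4 arms being 21 to 23 bases long, and differences in ligation between sequences were not corrected. The 4 arms together held 0.174%, 0.157% and 0.208% of known miRNA counts in hypoxia libraries A, B and C, against 0.151%, 0.193% and 0.213% in control libraries A, B and C. The widest exact Clopper-Pearson 95% interval among these shares was that of hypoxia C, 0.206% to 0.211%. Such intervals cover counting error of reads alone, not the spread between libraries. Reads copied by PCR are not separate molecules, so the intervals can be too narrow even for counting error. The shares overlapped, with means of 0.180% ± 0.0262 in hypoxia and 0.186% ± 0.0320 in control (SD, n = 3 each); a two-sided exact permutation test gave p = 0.9, where 0.1 is the smallest possible.

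**Figure D2:**
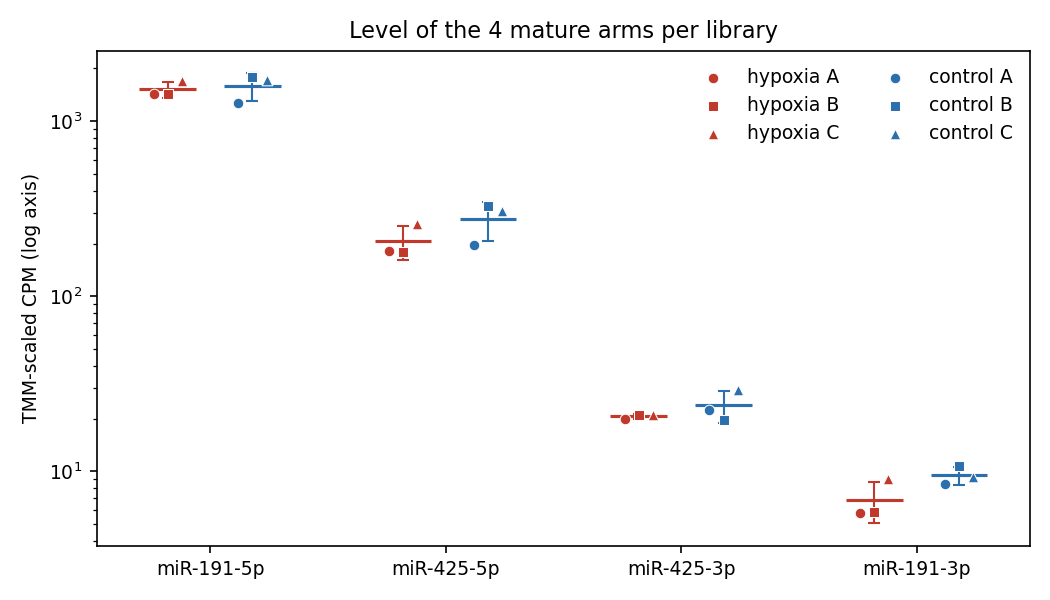
Level of each arm in each library in TMM-scaled CPM on a log axis, hypoxia in red left of control in blue; marker shapes are the letters, horizontal lines the group means and error bars the SD (n = 3). The arms keep the order miR-191-5p, miR-425-5p, miR-425-3p, miR-191-3p in every library, and the groups overlap for each arm.

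miR-191-5p, the most abundant arm and the one held to be the guide, stood at 1424, 1429 and 1702 CPM in hypoxia libraries A, B and C, against 1270, 1798 and 1715 CPM in control libraries A, B and C. Control A was the lowest library and control B the highest, so all hypoxia values fell inside the range of the controls. The values came from 23692, 23304 and 23451 counts in hypoxia and 15690, 23399 and 26932 in control. The log2 fold change, hypoxia over control, was -0.07 (SE 0.18, 95% confidence interval -0.49 to 0.35, edgeR quasi-likelihood test with Benjamini-Hochberg adjustment over 619 miRNAs, adjusted p = 0.99). Scaled to library size only, it was 0.0027, so its sign depended on the scaling. The interval leaves out a change as large as that of miR-210-3p, the miRNA in the title of the series and a known target of hypoxia-inducible factors, whose log2 fold change was 1.19 (SE 0.25). That change was itself uncalled in the same fit (edgeR adjusted p = 0.65).

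miR-425-5p, the main arm of the other hairpin, stood at 182, 178 and 259 CPM in hypoxia libraries A, B and C, against 197, 326 and 306 CPM in control libraries A, B and C. Each hypoxia library lay below the control library of its letter, although hypoxia C lay above control A and the groups overlapped. The log2 fold change was -0.42 (SE 0.26, 95% confidence interval -1.0 to 0.16, edgeR adjusted p = 0.85). Within the letters the differences in log2 CPM were -0.11 in pair A, -0.87 in pair B and -0.24 in pair C. Pair B gave the widest difference, and control B was also the library with the lowest TMM factor, 0.896. As a share of known miRNA counts, which uses no such factor, miR-425-5p held 0.0171% in hypoxia B and 0.0292% in control B. Scaled to library size only, its log2 fold change was -0.34. The part of the factor was not tested beyond these values.

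miR-191-3p, the passenger strand of miR-191, was the scarcest of the 4 arms. Its 5.77, 5.89 and 9.0 CPM in hypoxia libraries A, B and C came from 96, 96 and 124 counts, and its 8.50, 10.7 and 9.29 CPM in control libraries A, B and C came from 105, 139 and 146 counts. Hypoxia A and B lay below every control library, and hypoxia C lay among the controls. The log2 fold change was -0.47 (SE 0.25, 95% confidence interval -1.05 to 0.12, edgeR adjusted p = 0.78).

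miR-425-3p, the passenger strand of miR-425, had nearly the same level in the 3 hypoxia libraries. It stood at 19.8, 20.9 and 21 CPM in hypoxia libraries A, B and C, against 22.5, 19.7 and 29.2 CPM in control libraries A, B and C. The controls spread on both sides of the hypoxia values, and control C was the highest library. The log2 fold change was -0.21 (SE 0.21, 95% confidence interval -0.69 to 0.27, edgeR adjusted p = 0.97).

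Called at an adjusted p of 0.05 were 0 of the 4 arms, in a comparison in which edgeR called 0 of 619 miRNAs (0%) and 42 (6.79%) had an unadjusted p under 0.05. On the same 619 miRNAs limma-voom called 0, with 43 at that unadjusted p. DESeq2, run without the filter on all 1322 miRNAs with a count, called 1, with 45 at that unadjusted p. With the letter as a replicate block, edgeR called 14 of 619 (2.26%), again with 0 of the 4 arms among them. In that blocked fit miR-425-5p had a log2 fold change of -0.41 (SE 0.15, edgeR's adjusted p = 0.17) and miR-191-3p of -0.48 (SE 0.19, edgeR's adjusted p = 0.19). These 2 of 4 arms had an unadjusted p under 0.05 there, as did 132 of all 619 (21.3%). All 4 fitted log2 fold changes were below 0, as were 302 of 619 (48.8%), and the median of the 4 was -0.32 against 0.01 over all tested miRNAs. Arms of 1 hairpin come from the same precursor, so the 4 arms are not independent of one another. The arms lower in hypoxia in all 3 same-letter pairs were miR-425-5p and miR-191-3p, 2 of 4, against 121 of 619 (19.5%). The arms whose groups did not overlap were 0 of 4, against 80 of 619 (12.9%).

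**Figure D3:**
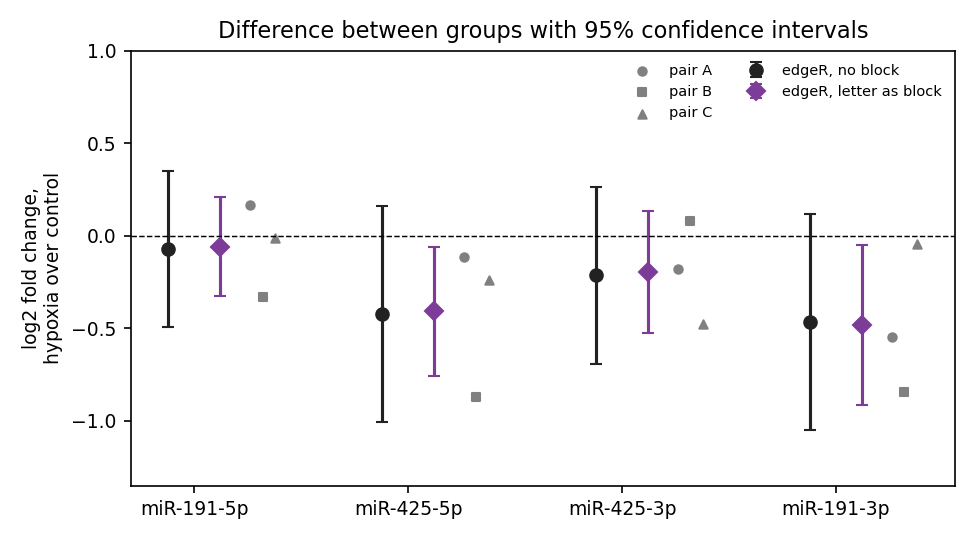
Log2 fold change of each arm, hypoxia over control, with 95% confidence intervals, from edgeR without a block (black) and with the letter as a block (purple); grey markers are the differences in log2 CPM within the same-letter pairs. Every unblocked interval includes 0, and the blocked intervals of miR-425-5p and miR-191-3p lie below 0, with adjusted p of 0.17 and 0.19.

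A ratio between arms of 1 hairpin needs no scaling between libraries, since both arms are read from the same library. In both hairpins the 5p arm exceeded the 3p arm in every library, far more so in miR-191. There were 247, 243 and 189 miR-191-5p counts for each miR-191-3p count in hypoxia libraries A, B and C, against 149, 168 and 184 in control libraries A, B and C. The lowest hypoxia ratio, in library C, lay just above the highest control ratio, also in library C, so the groups did not overlap. The log2 ratio averaged 7.80 ± 0.21 in hypoxia and 7.38 ± 0.15 in control (SD, n = 3 each), a difference of 0.43 that gave p = 0.1, the smallest possible, in a two-sided exact permutation test. Within the letters the difference was 0.72 in pair A, 0.53 in pair B and 0.04 in pair C (SD 0.35). An exact sign-flip permutation test of these pairs gave p = 0.25, its smallest possible value. Of the 189 hairpins with both arms tested, 35 (18.5%) had groups without overlap in this ratio. Arms were matched into hairpins by name. Some hairpins, such as miR-486a and miR-486b, had the same ratio in every library, so the 189 are not independent of one another.

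Seen as a share, miR-191-3p made up 0.404%, 0.410% and 0.526% of the counts of its hairpin in hypoxia libraries A, B and C, against 0.665%, 0.591% and 0.539% in control libraries A, B and C. For C the exact Clopper-Pearson 95% intervals were 0.438% to 0.627% in hypoxia and 0.455% to 0.634% in control and overlapped along most of their length. For B they were 0.332% to 0.501% in hypoxia and 0.497% to 0.697% in control and met at their ends. For A they were 0.327% to 0.493% in hypoxia and 0.544% to 0.804% in control and did not meet. These intervals cover counting error of reads alone and set single libraries side by side, so they do not test a difference between groups. By its mean log2 ratio of 7.59 over the 6 libraries, miR-191 ranked 13 of 189 hairpins in how far the 5p arm exceeded the 3p arm. By the size of the difference between groups it ranked 55 of 189.

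The arms of miR-425 were less unequal, and their ratio overlapped between groups. There were 9.18, 8.50 and 12.4 miR-425-5p counts for each miR-425-3p count in hypoxia libraries A, B and C, against 8.75, 16.5 and 10.5 in control libraries A, B and C. Control B alone stood apart, with a ratio of 16.5, while the other 5 libraries lay between 8.50 and 12.4. The log2 ratio averaged 3.30 ± 0.28 in hypoxia and 3.52 ± 0.47 in control (SD, n = 3 each), a difference of -0.22 for which the same two-sided exact test over libraries gave p = 0.6. Without control B the difference was 0.046. With a mean log2 ratio of 3.41 miR-425 ranked 51 of 189 hairpins, and the size of its difference ranked 113.

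The main arms of the 2 hairpins were also set against each other, since both hairpins lie on 1 strand of 1 locus. miR-191-5p had 7.82, 8.04 and 6.57 counts for each miR-425-5p count in hypoxia libraries A, B and C, against 6.45, 5.52 and 5.60 in control libraries A, B and C. The ratio was higher in every hypoxia library than in any control library, with hypoxia C and control A lying closest. The log2 ratio averaged 2.90 ± 0.16 in hypoxia and 2.55 ± 0.12 in control (SD, n = 3 each), a difference of 0.35 with an exact permutation p of 0.1, again the smallest possible. Within the letters the difference was 0.28 in pair A, 0.54 in pair B and 0.23 in pair C (SD 0.17), larger than the spread between pairs, though 3 pairs cannot give an exact sign-flip permutation p below 0.25, the value found. Adjusted over the 3 ratios by Benjamini-Hochberg, the exact permutation p-values were 0.15 for miR-191 arms, 0.6 for miR-425 arms and 0.15 for miR-191-5p to miR-425-5p, and 3 libraries against 3 cannot reach 0.05.

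Ratios of neighbouring hairpins gave the background for this value. They were taken from adjacent hairpins on 1 strand, at most 10 kb apart, with both arms named in the count table and each hairpin represented by its more abundant arm. Of 70 such pairs 20 (28.6%) had groups without overlap. Many of the 70 pairs come from the imprinted run of hairpins from miR-379 to miR-410, and adjacent pairs there share a hairpin. The 70 ratios are therefore not independent of one another and weigh that locus heavily. The median absolute difference in log2 ratio was 0.29 over the 70 pairs, and that of miR-191-5p to miR-425-5p, 0.35, ranked 30 of 70. The 3p arms gave no such separation. Their log2 ratio, miR-191-3p to miR-425-3p, averaged -1.61 ± 0.34 in hypoxia and -1.31 ± 0.39 in control (SD, n = 3 each, exact permutation p = 0.5, smallest possible 0.1).

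**Figure D4:**
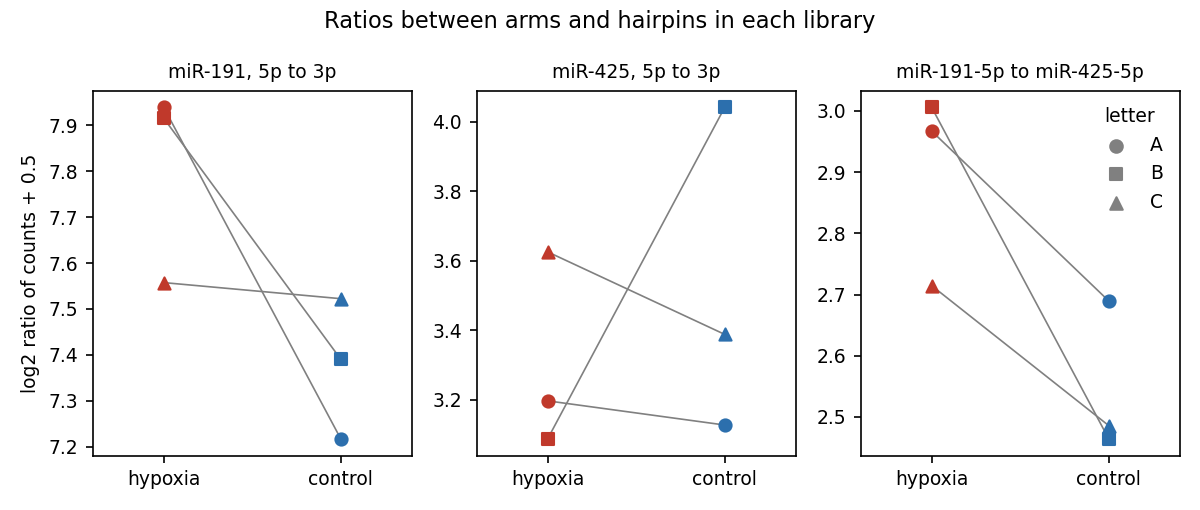
Log2 ratios of counts (plus 0.5) in each library, hypoxia left and control right, with lines joining libraries of the same letter and a y axis of its own in each panel. The groups separate for miR-191 arms and for miR-191-5p to miR-425-5p, with hypoxia higher, and overlap for miR-425 arms, where control B stands highest.

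As a PCR normalizer is chosen for a steady level, the spread over all 6 libraries was described for the arms and for 14 other miRNAs often used as references. The SD of log2 CPM was 0.20 for miR-191-5p, which ranked 111 of 619 from the least variable, and 0.21 for miR-425-3p (rank 136). It was 0.36 for miR-191-3p and 0.39 for miR-425-5p (rank 338), beside a median of 0.36 over all tested miRNAs. Among the 14 reference miRNAs, 7 varied more than miR-191-5p and 0 more than miR-425-5p. Their SD ran from 0.11 for miR-26a-5p, a widely expressed miRNA, to 0.34 for miR-320-3p. Of the 14, 0 passed edgeR with or without the block, 7 lay below 0 and 7 above, with a median log2 fold change of 0.0029. miR-103-3p, often paired with miR-191-5p as a normalizer, averaged 1639 ± 105 CPM in hypoxia and 1431 ± 78.8 CPM in control (SD, n = 3 each). Its log2 fold change was 0.20 (SE 0.15).

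**Figure D5:**
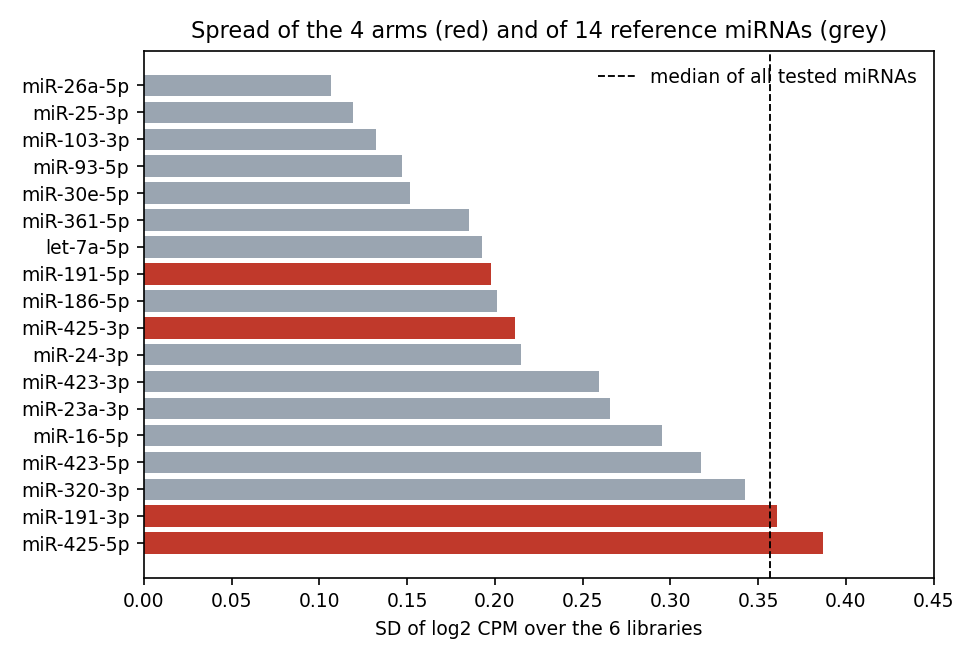
SD of log2 CPM over the 6 libraries for the 4 arms (red) and 14 miRNAs often used as references (grey), with the median of all 619 tested miRNAs as a dashed line. miR-191-5p, at 0.20, lies in the middle of the reference miRNAs, and miR-425-5p, at 0.39, varies more than each of them.

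The arms did not all follow one pattern across libraries. Likeness was measured as Pearson's r of log2 CPM over the 6 libraries, which share letters and scaling, and is given as a description. The r with miR-425-5p was 0.89 both for miR-191-5p and for miR-191-3p, whereas miR-191-5p and miR-191-3p, cut from the same hairpin, had 0.63. miR-425-3p was unlike the others, with r of 0.36 to miR-425-5p, 0.30 to miR-191-3p and 0.16 to miR-191-5p. Seen from miR-425-5p, miR-191-3p ranked 10 and miR-191-5p ranked 11 of 618 miRNAs in likeness.

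Outside the cluster, the miRNA most like miR-425-5p was miR-185-5p (r = 0.98), which lay next to it in level. miR-185-5p averaged 208 ± 39.7 CPM in hypoxia and 246 ± 43.6 CPM in control (SD, n = 3 each). After it came miR-466f-3p and miR-23a-5p (both r = 0.95). Most like miR-191-5p were miR-466p-3p (r = 0.98), miR-3060-3p (r = 0.95) and miR-26a-5p (r = 0.95), the last at 17155 CPM on average over the 6 libraries. Most like miR-191-3p were miR-3535 (r = 0.98), miR-301a-5p (r = 0.95) and miR-877-5p (r = 0.95). For miR-425-3p they were miR-486b-3p (r = 0.94), miR-217-5p (r = 0.94) and miR-3968 (r = 0.90), the first at 2.86 CPM and the second at 0.943 CPM on average. Those likenesses rest on few counts, as do those of miR-3060-3p at 2.92 CPM, miR-23a-5p at 3.68 CPM and miR-877-5p at 5.93 CPM.

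Lists of miRNAs with a related role gave the setting. Of 14 miRNAs linked to hypoxia in the literature 12 were tested, and miR-373-3p and miR-424-5p were not among the known miRNAs counted. The 12 had a median log2 fold change of 0.07, with 8 above 0. The 4 below 0 were miR-21a-5p, miR-23b-3p, miR-27a-3p and miR-155-5p. Without the block 0 passed edgeR, and with it 1 did, miR-210-3p. That miRNA averaged 527 ± 128 CPM in hypoxia and 232 ± 56.8 CPM in control (SD, n = 3 each). Its edgeR adjusted p was 0.024 with the block and 0.65 without it. miR-107-3p, a relative of miR-103 encoded in an intron of a pantothenate kinase gene, averaged 167 ± 6.51 CPM in hypoxia and 126 ± 2.59 CPM in control (SD, n = 3 each). Its log2 fold change was 0.40 (SE 0.17), and its edgeR adjusted p was 0.082 with the block and 0.72 without it. In the miR-106b/93/25 cluster, whose hairpins are processed from 1 host transcript, 6 of 6 arms were tested and 4 lay below 0. The median was -0.02 and 0 of these arms passed with or without the block.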

How the data were processed

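Small RNA of 3 hypoxia and 3 control libraries was sequenced. The table used held raw read counts per known mature miRNA, deposited by the authors as whole numbers. Per the submitters' processing notes, the tools were bcl2fastq 2.0 and DESeq2 and the build mm10, with no roles stated; the aligner, counter and miRNA release were not given in the sources used here. RNA came from exosomes by the labels' protocol but from cells by the design text, and the files do not settle which. Library totals were 12285970 to 16975987 counts.

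The main test was that of edgeR 4.0.16 in R 4.3.3 (filterByExpr, TMM, quasi-likelihood test, Benjamini-Hochberg adjustment over 619 miRNAs at 0.05), after a test on simulated data. Each SE is the size of the log2 fold change over the square root of F. log2 CPM used a prior count of 2. Alternatives were DESeq2 1.42.0, limma 3.58.1 (voom), other scalings, no filter, libraries left out and the letter block. Ratios used counts plus 0.5 and exact permutation tests (SciPy 1.17.1). Hairpins were folded with RNAfold 2.7.2.

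Letters were taken to pair libraries because deviations from group means correlated above a limit of 0.1 within each letter (0.52 for A, 0.43 for B, 0.28 for C). The highest unlike-letter value, 0.12, also exceeded that limit, so the limit alone does not single out same-letter libraries. This pairing comes from column names and values, not from the labels. With 3 libraries per group the deviations cancel within each group, so these correlations are not independent of one another. The blocked results rest on a pairing that was checked only on the same values.

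The members and lists were chosen with earlier results of these data known. Named were the 4 arms, miRNAs sharing their seeds, the 3 most alike per arm, and members of the lists. The table of predicted miRNAs was not used here.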

Additional observations from a re-analysis of the deposited data

How the results depend on the processing

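Over 17 alternative settings the 4 arms stayed uncalled in edgeR, DESeq2 and limma-voom. miR-191-3p, miR-425-5p and miR-425-3p kept a log2 fold change below 0 in all 17, and miR-191-5p in 14. For miR-191-5p it was 0.0027 with scaling to library size only and 0.050 with the replicate block without pair B. Leaving out single libraries gave -0.23 to 0.0013 for miR-191-5p, above 0 without control B. It gave -0.73 to -0.36 for miR-191-3p, -0.65 to -0.31 for miR-425-5p and -0.35 to -0.045 for miR-425-3p. Called miRNAs, 0 of 619 in edgeR, numbered 4 without the filter, 1 with DESeq2, 14 with the replicate block and 23 with that block without pair B, and 0 without pair A, without pair C or without any single library. The cause was not tested. Leaving out single libraries, the group difference in log2 ratio ran from 0.35 to 0.55 for miR-191 arms, -0.41 to 0.046 for miR-425 arms and 0.29 to 0.44 for miR-191-5p to miR-425-5p. The difference in summed share ran from -0.0234 to 0.00795 percentage points. miR-191-3p, with 96 to 146 counts per library, was the arm most limited by depth.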
